A study of Mus musculus with 12 samples.

Results

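The regions described here were the clusters of olfactory receptor (Olfr) and vomeronasal receptor (Vmn1r and Vmn2r) genes on the mouse autosomes, measured by OK-seq in mouse embryonic stem (ES) cells. Autosomal protein-coding genes with an Olfr, Vmn1r or Vmn2r symbol in the GENCODE M21 annotation of mm10 were joined where they lay less than 200 kb apart, and stretches with at least 5 such genes were kept. The choice used gene names and positions and no OK-seq value. It gave 55 clusters of 101 stretches, with 1368 of the 1455 autosomal receptor genes. There were 1082 Olfr, 193 Vmn1r and 93 Vmn2r genes in them, of 20807 autosomal protein-coding genes in all.

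OK-seq isolates Okazaki fragments, the short pieces of the lagging strand, after a brief pulse of the thymidine analog EdU and maps them by strand. A rightward fork leaves its lagging-strand fragments on the Crick strand and a leftward fork leaves them on the Watson strand. The share of Crick reads therefore reads as the share of forks that move to the right, it rises from left to right across a place where forks start, and it falls where forks meet. The series asked how KMT2C and KMT2D, the enzymes that place H3K4me1 at enhancers, bear on replication as naive ES cells become epiblast-like cells (EpiLCs). Naive cells were kept with LIF and 2i, and EpiLCs, called formative in the labels, were collected after LIF and 2i were withdrawn. The control was a KMT2C KO line with a conditional KMT2D allele and CreER on a mixed C57BL/6 and 129 background. The KMT2C/D dKO was the same line after 4-hydroxytamoxifen had removed KMT2D. The KMT2C/D dCD was an R1 line of 129 background with catalytically dead KMT2C and KMT2D. All 3 genotypes, the control included, thus carried altered KMT2C, and in the dCD line strain and genotype cannot be told apart.

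The 12 samples were 2 replicates of each of 6 conditions, and each table held the 2 replicates summed, so that every condition was 1 library. Autosomal reads numbered 4292393 in naive control, 3832794 in naive dKO, 3559511 in naive dCD, 11087588 in EpiLC control, 12609142 in EpiLC dKO and 13223312 in EpiLC dCD. With 1 library a condition, no test between conditions exists and no p-value is given. Every difference compares libraries, not conditions. Intervals are 95% intervals and cover counting error only, since the replicates were summed. The reads carried no molecular identifiers and may repeat a molecule, in which case the intervals are too narrow. Read density over the whole of Kmt2c was 1.09 to 1.25 times that of its 200 kb flanks and over Kmt2d 0.914 to 1.25 times, and 1 kb bins cannot resolve an exon deletion or a point mutation, so these values check no label.

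Odorant receptors are G protein-coupled receptors of the nose. Each olfactory neuron expresses a single allele of a single receptor gene and keeps the rest of this large family silent in heterochromatin. Vmn1r and Vmn2r receptors serve pheromone detection in the vomeronasal organ, where they couple to the G proteins Gnai2 and Gnao1. The genes stand in long AT-rich arrays that arose by local duplication, and the arrays are known to replicate late in many cell types and to be silent in ES cells.

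The clusters lay on 16 chromosomes, with 17 of them on chromosome 7, and covered 44.7 Mb, or 1.82% of autosomal bins. They ran from 82.5 to 5073 kb, with a median of 633 kb and of 15 receptor genes. Of the 55, 31 held Olfr genes only, 10 Vmn1r only, 7 Vmn2r only and 7 a mixture. Their GC content was 38.8% against 41.9% over the autosomes. Bins of 1 kb without a read in any library made up 12.1% of the clusters and 3.41% of the autosomes. Of the receptor genes, 37 carried the suffix -ps, used for pseudogenes, in their symbol.

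Receptor promoters hold few CG dinucleotides, and the sequences below are shown because the strand bias around a transcription start site (TSS) is set against CG content further on. RefSeq promoters (GRCm38.p6, 250 bases before to 50 after the annotated start) were matched by name to 1148 of the 1368 receptor genes and to 14555 other protein-coding genes. The median receptor promoter held 1 CG against 16 in the other genes. No CG at all was present in 32.3% of receptor promoters and in 2.56% of the others, and 85.5% against 12.3% held 2 or fewer. Among the receptors, 39 promoters were identical to that of another receptor, and 29 of these were Vmn1r promoters. The 250 bases before the RefSeq start are given 5′ to 3′ on the strand of the gene, with CG in capitals. Patl1, whose product takes part in mRNA decay, is not a receptor gene but starts inside the chromosome 19 cluster Olfr1417 to Olfr1441, and its promoter (chr19:11912149-11912398, plus strand) held 24 CG. Olfr73 (chr2:88035138-88035387, minus strand) and Vmn2r72 (chr7:85754982-85755231, minus strand) held 1 each, and Olfr347 (chr2:36734073-36734322, plus strand) held 0. Vmn2r72 and Olfr347 had the highest and lowest TSS strand bias in the EpiLC control. That bias was measured at the GENCODE TSS, which lies 116 bases from the RefSeq start for Vmn2r72 but 2421 for Olfr347 and 2562 for Olfr73, so the sequences of Olfr347 and Olfr73 belong to another start. The Vmn1r111 sequence (chr7:20703217-20703466, minus strand) was shared base for base by Vmn1r118, Vmn1r131, Vmn1r138 and Vmn1r166, and a read from such a copy cannot be placed by its sequence.
Patl1: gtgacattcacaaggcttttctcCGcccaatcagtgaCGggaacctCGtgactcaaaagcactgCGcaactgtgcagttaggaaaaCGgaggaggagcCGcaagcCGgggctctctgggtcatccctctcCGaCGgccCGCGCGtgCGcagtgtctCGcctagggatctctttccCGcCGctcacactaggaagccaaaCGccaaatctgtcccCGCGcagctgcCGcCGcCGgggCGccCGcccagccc
Olfr73: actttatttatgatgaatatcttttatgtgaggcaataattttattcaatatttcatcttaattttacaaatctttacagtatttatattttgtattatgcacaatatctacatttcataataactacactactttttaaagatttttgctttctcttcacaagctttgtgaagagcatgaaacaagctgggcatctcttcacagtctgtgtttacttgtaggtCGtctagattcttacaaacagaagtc
Olfr347: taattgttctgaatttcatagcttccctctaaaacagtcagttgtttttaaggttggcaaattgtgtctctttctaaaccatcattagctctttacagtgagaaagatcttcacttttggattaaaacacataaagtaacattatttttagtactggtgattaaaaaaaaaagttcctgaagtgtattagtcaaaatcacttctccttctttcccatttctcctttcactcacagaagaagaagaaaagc
Vmn2r72: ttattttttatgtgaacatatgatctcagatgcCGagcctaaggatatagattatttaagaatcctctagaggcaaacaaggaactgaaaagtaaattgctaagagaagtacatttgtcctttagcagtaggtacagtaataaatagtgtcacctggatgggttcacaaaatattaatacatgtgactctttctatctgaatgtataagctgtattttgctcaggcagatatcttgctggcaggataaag
Vmn1r111: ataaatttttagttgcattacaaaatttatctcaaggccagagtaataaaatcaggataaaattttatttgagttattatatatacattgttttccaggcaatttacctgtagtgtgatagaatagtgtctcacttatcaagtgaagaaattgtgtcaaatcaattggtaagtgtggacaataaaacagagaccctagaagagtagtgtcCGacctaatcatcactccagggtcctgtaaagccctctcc

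Receptor clusters held fewer Okazaki fragment reads per kb than the 500 kb on either side of them in all 6 libraries. In the naive control the clusters had 1.19 reads per kb and their flanks 1.77, and in the EpiLC control 3.16 and 4.58. The ratio of cluster to flank density was 0.671 (95% interval 0.663 to 0.678) in naive control, 0.695 (0.687 to 0.703) in naive dKO and 0.666 (0.658 to 0.674) in naive dCD. It was 0.690 (0.686 to 0.695) in EpiLC control, 0.677 (0.673 to 0.681) in EpiLC dKO and 0.716 (0.712 to 0.720) in EpiLC dCD. All 6 ratios thus lay within a narrow band below 1. Between 42 and 44 of the 55 clusters had an interval wholly below 1 in each library, and 4 to 6 had one wholly above 1. The same ratio was 0.799 to 0.838 over 248 stretches of over 1 Mb without a protein-coding gene, and 0.883 to 0.988 over 17 clusters of zinc finger (Zfp) genes.

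Mappability moved with this deficit. Of all 50-base words in the clusters, 21.6% recurred elsewhere on the same chromosome, against 14.6% in the flanks. In 5 clusters, with 58 receptor genes, over 50% of the words recurred (77.7 to 99.7%), while in the other 50 clusters 6.15 to 38.3% did, or 16.02% of their words together. Without those 5 clusters the ratio was 0.689, 0.714 and 0.685 in naive control, dKO and dCD and 0.709, 0.695 and 0.736 in EpiLC control, dKO and dCD, so the deficit was nearly as large without them. The part that repeated sequence plays in the rest of the deficit was not tested. Repeated copies did go with the extreme clusters. Vmn1r135 to Vmn1r143, 359 kb on chromosome 7, had 0 reads in every library, which allows a density of up to 0.468% of the autosomal density in naive control and 0.181% in EpiLC control (3 reads). Vmn1r148 to Vmn1r166 stood at 0.036 of its flanks in EpiLC control (31 reads), and Vmn1r100 to Vmn1r132 at 0.063 (63 reads). At the other end Vmn2r41 to Vmn2r45 stood at 5.08 (3.78 to 6.90), but 93.3% of the words of its flanks recurred and the flanks held only 64 reads. Vmn2r46 to Vmn1r71 stood at 3.53 (3.23 to 3.86), with 77.1% of the words of its flanks recurring.

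**Figure D1:**
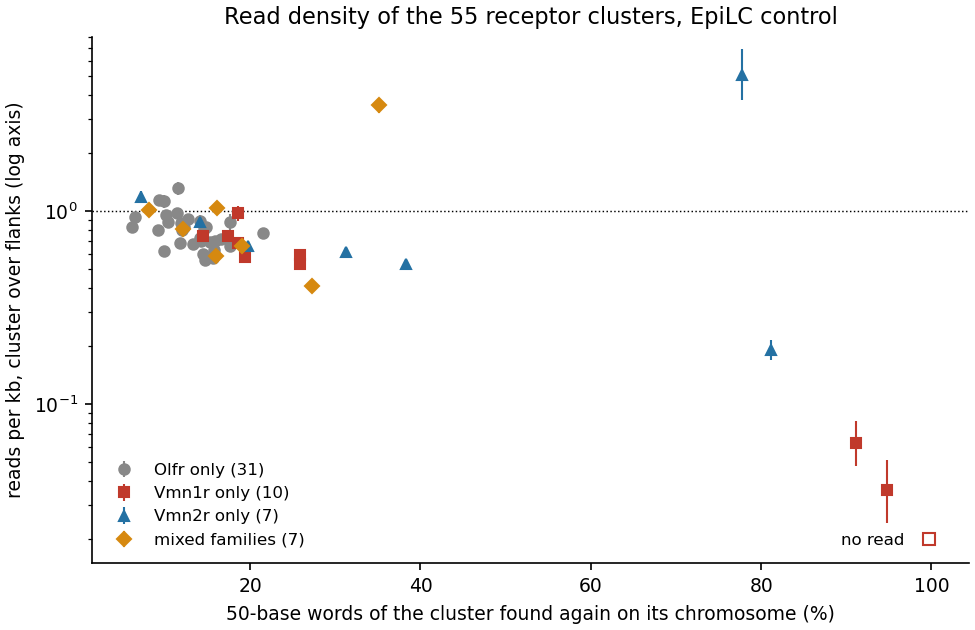
Read density of each of the 55 receptor clusters over that of its 500 kb flanks in the EpiLC control (log axis) against the percentage of its 50-base words found again on its chromosome; symbols give the receptor family and bars 95% counting intervals. The 5 clusters with 77.7 to 99.7% of words repeated include the one without a read and the value of 5.08, and the median over all clusters is 0.741.

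The named clusters showed the deficit to different degrees. The largest, Olfr987 to Olfr1274-ps on chromosome 2 (mm10 chr2:85330779-90403897, 227 receptor genes), stood at 0.611, 0.592 and 0.571 of its flanks in naive control, dKO and dCD and at 0.571, 0.564 and 0.590 in the same genotypes in EpiLCs. The larger class I cluster, Olfr543 to Olfr649 (chr7:102476579-104195985, 95 genes), holds receptors that resemble those of fish and was less depleted, at 0.744, 0.755 and 0.766 in naive cells and 0.699, 0.681 and 0.768 in EpiLCs. The class I genes continue in Olfr651 to Olfr692 (chr7:104550133-105369355, 34 genes), at 0.872, 0.944 and 0.880 and then 0.830, 0.868 and 0.954. Olfr160 to Olfr986 (chr9:37708964-40190134, 95 genes) lay between, at 0.636, 0.677 and 0.681 and then 0.617, 0.657 and 0.703. The lowest of these were the values of the largest Vmn1r cluster, Vmn1r188 to Vmn1r223 (chr13:22084440-23253906, 36 genes), at 0.482, 0.509 and 0.507 in naive cells and 0.528, 0.519 and 0.533 in EpiLCs. The cluster with most Vmn2r genes, Olfr291 to Vmn2r79 (chr7:84853553-87044941, 15 Vmn2r), stood at 0.784, 0.761 and 0.735 and then 0.804, 0.745 and 0.790. Each of these named clusters had a ratio below 1 in all 6 libraries. The interval reached past 1 only for Olfr651 to Olfr692 in naive dKO (0.867 to 1.03).

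In single 100 kb windows the deficit was more frequent than over the genome. In naive control 64 of 431 receptor windows (14.8%) had a density at least 1.5-fold under that of their own flanks, against 3.16% of all windows. In EpiLC control 56 of 437 (12.8%) did, against 2.77%. The median receptor window stood at 0.897 of its flanks in naive control and 0.914 in EpiLC control.

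Between libraries the cluster-to-flank ratio moved by a few percent. Set against its own state's control it was 1.04 times as high in naive dKO (1.02 to 1.05), 0.993 times in naive dCD (0.978 to 1.01), 0.981 times in EpiLC dKO (0.972 to 0.990) and 1.04 times in EpiLC dCD (1.03 to 1.05). The dKO value was thus above its control in naive cells and below it in EpiLCs. Clusters were split in the same way: 39 of 52 measured clusters were higher in naive dKO than in naive control, and 35 of 53 were lower in EpiLC dKO than in EpiLC control. EpiLC over naive, the ratio was 1.03 in control, 0.974 in dKO and 1.08 in dCD. These shifts are larger than counting error in most cases, but with the replicates summed they cannot be set against the spread between replicates.

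On average, forks converged inside receptor clusters. Crick share was high at the left end of a cluster, as read along the chromosome, and low at the right end, in all 6 libraries. Each cluster was cut into 3 parts of equal length, and 48 clusters had at least 50 reads in each part in every library. The median Crick share of their left and right parts was 61.2% and 38.6% in naive control, 61.0% and 37.5% in naive dKO, and 63.8% and 34.5% in naive dCD. In EpiLCs it was 59.7% and 40.4% in control, 59.9% and 39.4% in dKO, and 61.9% and 36.7% in dCD. Most forks in the left part therefore moved right and most in the right part moved left, toward the middle of the cluster.

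The mean difference between the left and right parts was 18.6, 20.97 and 26.9 percentage points in naive control, dKO and dCD and 16.3, 18.3 and 21.4 points in EpiLC control, dKO and dCD. It lay above 0 in 44 to 46 of the 48 clusters in each library and in all 6 libraries in 43 of them. In naive control 34 clusters (70.8%) had a left part at least 10 points above the right part with an interval without 0, against 26.0% of 3911 windows of 600 kb laid over the autosomes. In EpiLC control 35 (72.9%) did, against 19.5%. These counts were taken after the convergent pattern had been seen, and they describe the same libraries. Base composition moved with the pattern: the excess of T over A in the reference strand was 1.37% in the left part and -0.933% in the right part, and with the part of Crick share that follows it taken off the means were 13.3, 16.2 and 21.01 points in naive cells and 13.4, 14.9 and 17.9 points in EpiLCs.

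**Figure D2:**
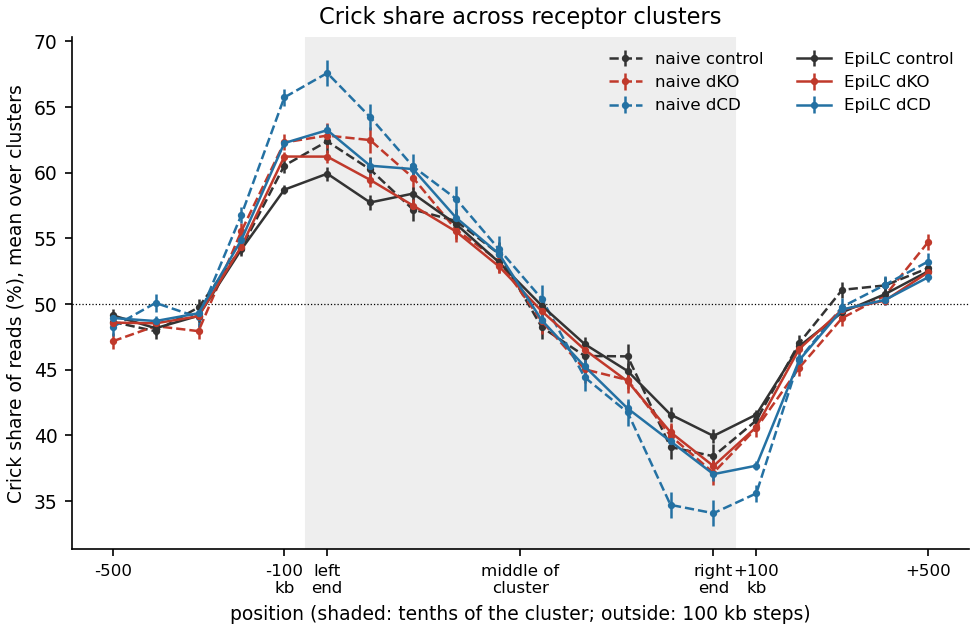
Mean Crick share of reads (percent) over receptor clusters, in equal steps along a cluster (shaded) and in 100 kb steps of its 500 kb flanks, with a line for each library and bars of 1 counting standard error. It goes from 59.9 to 67.6% at the left end to 34.1 to 40.0% at the right end, crosses 50% near the middle, and returns toward 50% in the flanks.

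The same profile extended past the ends of the clusters. In the last 100 kb before the left end the mean Crick share was 58.7 to 65.7% over the 6 libraries, and in the first 100 kb after the right end 35.6 to 41.6%. By the far end of the right flank it was 52.0 to 54.7%. The forks that entered the clusters were therefore already moving inward outside them. Gene deserts of over 1 Mb showed a like pattern, with a left-minus-right mean of 14.998, 17.6 and 21.9 points in naive control, dKO and dCD and 12.6, 13.95 and 16.3 in EpiLCs. In Zfp gene clusters the mean was near or below 0, with -4.00, -3.47 and -3.47 points in naive cells and 0.241, -1.15 and -1.41 in EpiLCs. The difference between receptor clusters and deserts was not tested.

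Most clusters of each receptor family converged. In EpiLC control the left part exceeded the right in 28 of 29 clusters of Olfr genes alone, 7 of 7 of Vmn1r genes alone and 4 of 5 of Vmn2r genes alone, with medians of 16.6, 17.3 and 14.8 points. In the larger class I cluster Olfr543 to Olfr649 the left part exceeded the right by 27.7, 34.4 and 50.2 points in naive control, dKO and dCD and by 26.3, 30.5 and 38.6 points in EpiLCs. Olfr160 to Olfr986 showed 26.0, 23.9 and 36.3 and then 22.0, 20.5 and 30.1 points. In the chromosome 13 Vmn1r cluster, Vmn1r188 to Vmn1r223, the values were 4.27 (-2.32 to 10.8), 14.8 and 23.9 points in naive cells and 8.73, 12.8 and 22.9 points in EpiLCs, with an interval that included 0 in naive control. The steepest cluster of Vmn2r genes alone, Vmn2r19 to Vmn2r27, showed 34.3, 49.2 and 59.5 points in naive cells and 23.6, 27.1 and 48.7 points in EpiLCs. It includes Vmn2r26, a pheromone receptor of basal vomeronasal neurons. The single cluster with a difference below 0 in all 6 libraries was Olfr1417 to Olfr1441 on chromosome 19, the cluster that holds Patl1, at -4.1, -11.2 and -21.2 points in naive cells and -13.0, -14.8 and -18.1 points in EpiLCs. Its read density was 1.07 to 1.14 times that of its flanks. The other 4 clusters, Olfr1344 to Olfr1350, Vmn2r46 to Vmn1r71, Olfr1356 to Vmn2r83 and Vmn2r99 to Vmn2r103, changed sign between libraries. None of them had intervals without 0 for both signs.

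**Figure D3:**
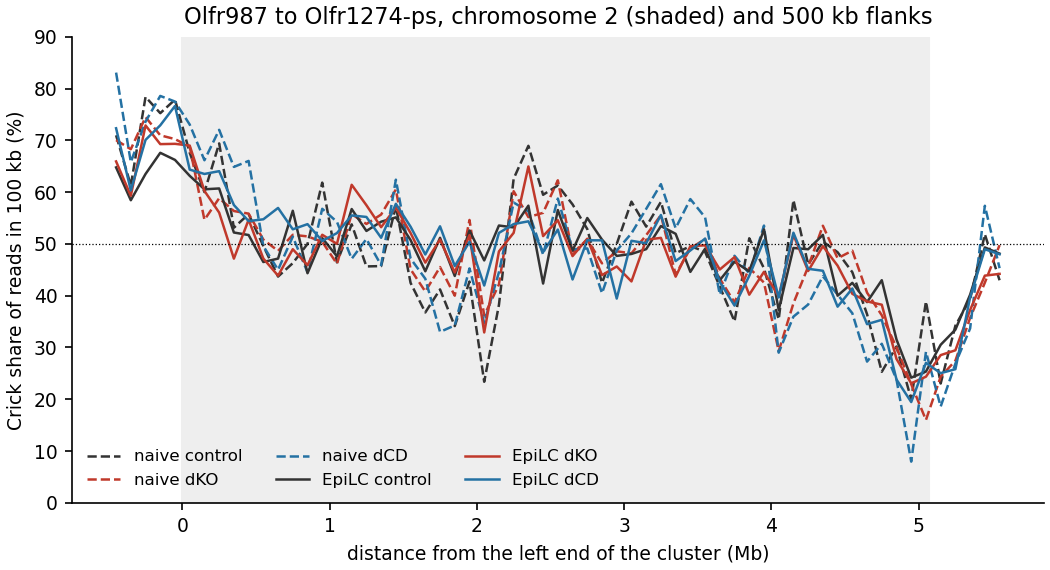
Crick share of reads (percent) in 100 kb windows along the 227-gene cluster Olfr987 to Olfr1274-ps (shaded) and its 500 kb flanks, by distance from the left end in Mb, with a line for each library. Inside the cluster every library has its lowest value, 7.95 to 24.2%, near the right end.

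The largest cluster had forks directed inward at both ends. Crick share in Olfr987 to Olfr1274-ps was highest near its left end, at 69.4, 68.8 and 73.0% in naive control, dKO and dCD and 63.1, 69.0 and 64.3% in EpiLCs. It was lowest in the window at 4900 kb, at 20, 22.9 and 7.95% in naive cells and 24.2, 23.1 and 19.5% in EpiLCs. In between it swung about 50%, and in EpiLC control it was above 50% in 24 of the 50 windows. Naive control went from 23.4% at 2000 kb to 68.9% at 2300 kb, where EpiLC control stood at 46.8 and 57.4%, so Crick share also rose within the cluster. Its left-minus-right difference, 9.10 to 17.8 points over the libraries, was smaller than those of the larger class I and the chromosome 9 clusters.

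Inside the clusters, Crick share rarely rose sharply from 1 window to the next. In naive control 31 of 344 steps between neighbouring 100 kb windows (9.01%) rose by at least 10 points with an interval without 0, against 17.7% of all autosomal steps, and 61 (17.7%) fell, against 17.7%. In EpiLC control 16 (4.65%) rose, against 12.3%, and 43 (12.5%) fell, against 9.96%. Rises were thus less frequent than over the genome, while falls were about as frequent in naive control and more frequent in EpiLC control. The other 4 libraries had 12 to 25 rises (3.49 to 7.27%) and 52 to 69 falls (15.1 to 20.1%). Of all autosomal steps in naive dKO, naive dCD, EpiLC dKO and EpiLC dCD, 17.0, 18.8, 13.1 and 14.54% rose and 16.3, 19.02, 11.2 and 12.7% fell, against falls inside clusters of 17.4, 20.1, 15.4 and 15.1%. In gene deserts 4.03 to 8.21% of steps rose in the 2 control libraries, so a low share of rises was not particular to receptor clusters.

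Against control, the left-minus-right mean was higher by 2.39 points in naive dKO (0.398 to 4.38), 8.36 in naive dCD (6.31 to 10.4), 2.06 in EpiLC dKO (0.917 to 3.21) and 5.15 in EpiLC dCD (4.02 to 6.28). In dCD 38 of the 48 clusters were higher than control and 10 lower in each state, and in dKO 30 were higher and 18 lower in naive cells and 31 higher and 17 lower in EpiLCs. The size of the swings of Crick share over the whole genome moved with this: the ratio of the cluster means was 1.13, 1.45, 1.13 and 1.32 in the same order, and that of the amplitude over all autosomal windows 1.07, 1.34, 1.10 and 1.28. From naive cells to EpiLCs the mean fell by 2.31 points in control, fell by 2.64 in dKO and fell by 5.52 in dCD, with cluster ratios of 0.876, 0.874 and 0.795 against genome ratios of 0.782, 0.805 and 0.744. Whether the clusters differed from the genome in this respect was not tested.

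As measured, the swings of Crick share were a little wider in receptor windows than elsewhere. In 400 receptor windows of 100 kb with at least 50 reads in every library, the standard deviation of Crick share beyond counting error was 12.6, 13.3 and 17.1 points in naive control, dKO and dCD and 10.4, 11.3 and 13.1 points in EpiLCs. Over all 23398 such windows it was 11.7, 12.50 and 15.7 points and then 9.14, 10.1 and 11.7 points. Receptor windows held fewer reads, with a median of 131 in naive control and 336 in EpiLC control against 179 and 469 over all windows, and counting error was therefore larger in them. After removal of the T-minus-A part, naive control stood at 8.89 points in receptor windows and 8.78 over all, and EpiLC control at 8.40 and 7.49. Naive dKO then stood at 9.65 and 9.72 and naive dCD at 12.8 and 12.6. The counting standard error of the receptor values before removal was 0.221 to 0.228 points in naive cells. In naive cells receptor windows were therefore not clearly wider after removal. Windows with an interval wholly above 50% numbered 105, 111 and 122 in naive control, dKO and dCD and 140, 126 and 141 in EpiLCs, and those wholly below 105, 111 and 129 and then 124, 140 and 149, so rightward and leftward windows were nearly balanced.

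In windows of 100 kb, fork direction in receptor clusters differed between libraries about as often as elsewhere in naive cells. A window was counted where Crick share differed by at least 10 points with an interval without 0. Naive dKO differed from naive control in 36 of 401 receptor windows (8.98%) against 9.29% of all windows, and naive dCD in 71 of 401 (17.7%) against 18.8%. In EpiLCs the share was above that of all windows: dKO differed from control in 14 of 411 (3.41%) against 1.77%, with 3 higher and 11 lower, and dCD in 27 of 412 (6.55%) against 4.13%, with 11 higher and 16 lower. EpiLC control differed from naive control in 54 of 404 (13.4%) against 13.6%. For dKO the step from naive cells to EpiLCs gave 38 of 401 (9.48%) against 9.95%, and for dCD 54 of 401 (13.5%) against 20.3%. The EpiLC excess depended on window length and depth. In 200 kb windows it was absent, at 0.483% of receptor windows against 0.537% of all in dKO and 1.44% against 1.63% in dCD, and in 50 kb windows it was 6.98% against 5.79% and 11.97% against 9.05%. With all libraries thinned to the smallest it was 8.52% against 6.996% in dKO and 11.5% against 10.4% in dCD.

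**Figure D4:**
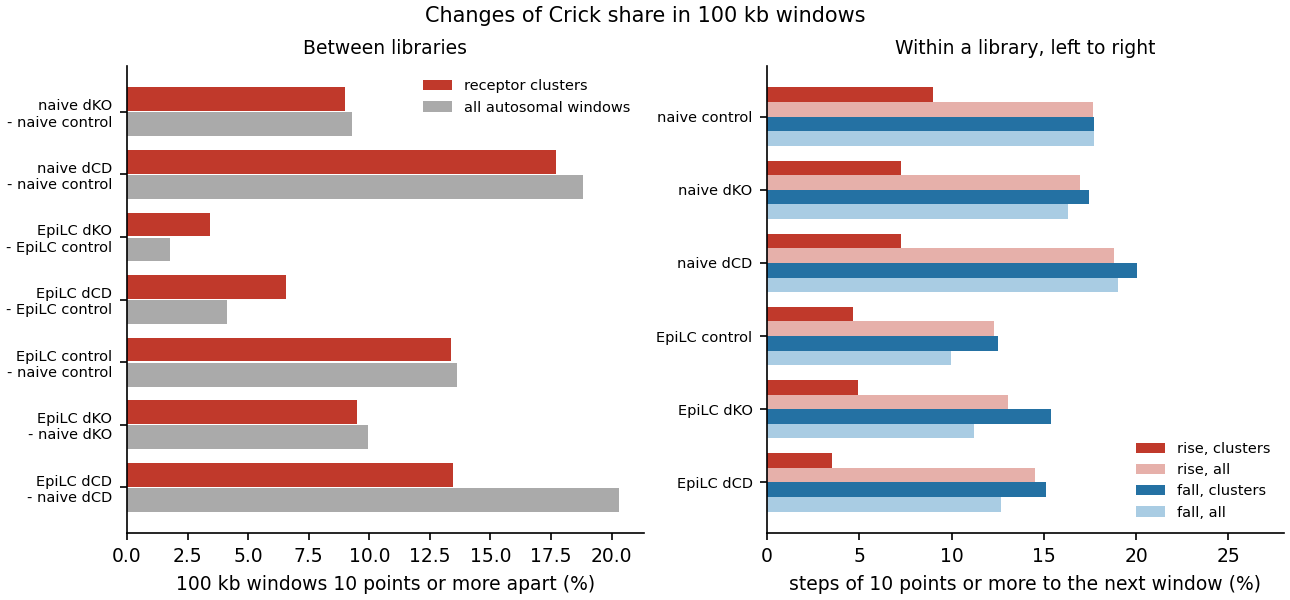
Left, percentage of 100 kb windows whose Crick share differed by at least 10 points between 2 libraries, in receptor clusters (red) and over all autosomes (grey); right, percentage of steps to the next window that rose (red) or fell (blue) by as much, in clusters (dark) and over all autosomes (light). Receptor windows exceed all windows in the EpiLC mutant comparisons, at 3.41 against 1.77% and 6.55 against 4.13%, and rises inside clusters are below those of the autosomes in each library.

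Single windows gave larger differences. The largest was at chr10:79200001-79300000 in naive dCD, at 34.1% against 68.0% in naive control, by -33.9 points (-45.7 to -20.3). A window at 37.1 Mb of chromosome 17 (chr17:37100001-37200000) was higher in dCD than in control in both states, at 79.1% against 51.1% in naive cells and 72.4% against 55.3% in EpiLCs. A window of the chromosome 2 cluster (chr2:87300001-87400000) rose from 25.5% in naive control to 50.9% in EpiLC control. In EpiLC dCD the lowest difference was at chr6:124000001-124100000, inside Vmn2r19 to Vmn2r27, at 35.8% against 52.0%. Whole clusters were compared where both libraries had at least 50 reads in the cluster, which left 51 to 53 of the 55. Among these the largest difference in both EpiLC mutants was at Olfr1416 to Olfr12 on chromosome 1 (chr1:92475925-92623412, 8 genes). Its Crick share was 57.5, 55.4 and 57.7% in naive control, dKO and dCD, 56.3% in EpiLC control, and 45.1% in EpiLC dKO and 47.04% in EpiLC dCD. The difference from EpiLC control was -11.2 points in dKO (-16.1 to -6.15) and -9.25 points in dCD (-14.1 to -4.29), the largest of 53 clusters. Both mutant libraries were compared with the same control library. In naive cells the cluster with enough reads that differed most from control was Vmn2r29 to Vmn2r36 in dKO, at 61.9% against 70.1%, with an interval that included 0 (-19.8 to 3.57), and Olfr211 to Olfr215 in dCD, at 75.2% against 61.4%, by 13.8 points (3.06 to 24.3). From naive cells to EpiLCs it was Olfr1378 to Olfr1375 both in control, from 51.2 to 60.6% with an interval that included 0 (-0.582 to 19.3), and in dKO, from 51.2 to 62.0% (0.853 to 20.7), and Olfr1416 to Olfr12 in dCD.

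Few receptor windows changed their share of reads between libraries, but in both naive mutants the percentage was above that of all windows. Windows were counted where read share differed by at least 1.5-fold with an interval without 1. Against naive control these were 2 of 404 receptor windows (0.495%) in naive dKO, against 0.174% of all windows, with 1 higher and 1 lower. In naive dCD they were 10 of 404 (2.48%), against 1.51%, with 3 higher and 7 lower. In EpiLCs 1 of 414 (0.242%) differed in dKO, against 0.0379%, and 0 of 413 in dCD, against 1.17%. EpiLC control differed from naive control in 1 of 412 (0.243%), against 0.185%. The naive dKO window that was lowest, chr7:23500001-23600000, held 34 reads against 71, a ratio of 0.537 (0.346 to 0.818). In 10 kb windows, a 2-fold lower share in dCD in both states was found in 2 of 4480 receptor windows (0.0446%) against 399 of 246266 over the autosomes (0.162%). No receptor window was 2-fold higher in dCD, or different in dKO, in both states. Over the autosomes 45 windows (0.0183%) were higher in dCD, and 8 (0.00325%) were lower and 12 (0.00487%) higher in dKO. Such shares are too low for 0 calls in 4480 windows to set the clusters apart.

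Receptor TSSs showed little strand bias over 25 kb on each side. The bias is the Crick share of the 25 kb to the right of a TSS minus that of the 25 kb to its left, so that forks starting at the TSS give a value above 0. Of the 1368 receptor TSSs, 1238 had at least 10 reads on each side in every library. Their mean bias was 0.828 points in naive control (0.268 to 1.39), 0.439 in naive dKO (-0.146 to 1.02) and 0.339 in naive dCD (-0.282 to 0.960). It was 0.296 in EpiLC control (-0.046 to 0.638), 0.465 in EpiLC dKO (0.143 to 0.787) and 0.431 in EpiLC dCD (0.121 to 0.740). All 19818 TSSs with enough reads averaged 6.41, 6.25 and 6.86 points in naive cells and 4.32, 4.63 and 4.99 in EpiLCs. Receptor means were thus close to 0 where the average TSS was not. After removal of the T-minus-A part they were 0.036, -0.443 and -0.602 in naive cells and -0.397, -0.258 and -0.306 in EpiLCs, so that the sign turned in 5 libraries, and with 50 kb on each side they were -1.21 to -0.699 over the 6 libraries. With 10 kb on each side, where 364 receptor TSSs had enough reads, they were 1.97, 0.120 and 2.05 in naive cells and 1.90, 2.09 and 2.17 in EpiLCs. Most of the used receptor TSSs, 1010 of 1238 (81.6%), had the next receptor TSS within 50 kb and shared reads with it.

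**Figure D5:**
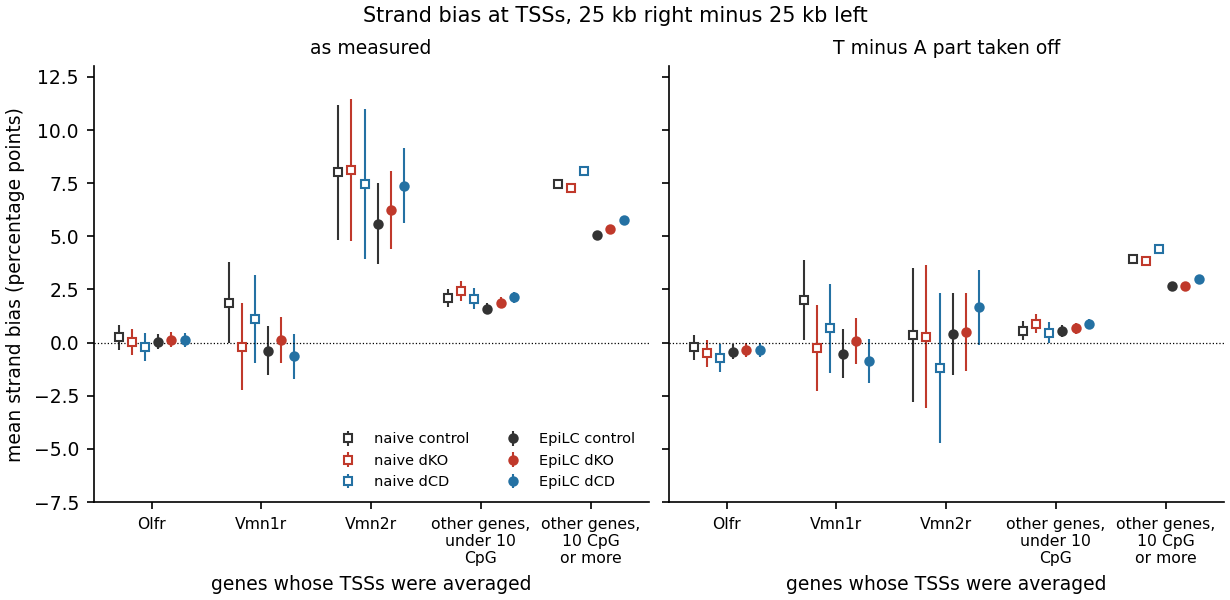
Mean strand bias (percentage points) of the TSSs of each receptor family and of other genes by CpG content, as measured (left) and after removal of the T-minus-A part (right); open squares are naive and filled circles EpiLC libraries, with 95% counting intervals. As measured, Vmn2r TSSs average 5.59 to 8.12 points and Olfr TSSs -0.202 to 0.2498, and after removal every Vmn2r interval includes 0.

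Counted one by one, receptor TSSs were called less often above 0 and more often below 0 than the genome. In naive control 107 (8.64%) had a bias of at least 10 points above 0 with an interval without 0, against 20.1% of all TSSs, and 92 (7.43%) one below, against 3.62%. In EpiLC control 112 (9.05%) were above, against 21.1%, and 92 (7.43%) below, against 3.36%. Upward and downward calls were therefore nearly balanced. CG content moved with the bias. The median 1 kb bin of a receptor TSS held 3 CpG against 38 over all TSSs. Other TSSs with fewer than 10 CpG averaged 2.10, 2.44 and 2.07 points in naive cells and 1.59, 1.88 and 2.13 in EpiLCs, while those with 10 or more averaged 7.48, 7.27 and 8.08 and then 5.04, 5.36 and 5.77. The receptor mean minus that of the low-CpG TSSs was -1.27, -2.003 and -1.73 points in naive control, dKO and dCD and -1.30, -1.42 and -1.70 in EpiLCs, and after removal of the T-minus-A part -0.525 (-1.24 to 0.185) in naive control and -0.937 (-1.37 to -0.503) in EpiLC control.

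Vmn2r TSSs stood apart from the other families as measured. Olfr TSSs (1047 used) averaged 0.2498, 0.029 and -0.202 points in naive control, dKO and dCD and 0.043, 0.143 and 0.122 in EpiLCs. Vmn1r TSSs (125 used) averaged 1.88, -0.184 and 1.11 and then -0.384, 0.118 and -0.652, and their difference from Olfr TSSs had an interval that included 0 in all 6 libraries as measured. After removal of the T-minus-A part that difference was 2.23 (0.243 to 4.21) in naive control and included 0 in the other 5. Vmn2r TSSs (66 used) averaged 8.01 (4.83 to 11.2), 8.12 and 7.46 in naive cells and 5.59 (3.68 to 7.51), 6.23 and 7.39 in EpiLCs, above Olfr TSSs in every library. The Vmn2r excess over Olfr was 7.76, 8.09 and 7.66 points in naive cells and 5.55, 6.09 and 7.26 in EpiLCs. Base composition moved with this excess: T minus A was higher to the right of a TSS than to its left by 5.54% for Vmn2r, by 0.448% for Olfr, by 0.297% for Vmn1r and by 2.03% for all TSSs. After removal of the T-minus-A part, the excess was 0.574, 0.787 and -0.489 points in naive cells and 0.832, 0.824 and 2.04 in EpiLCs, with an interval that included 0 in every library but EpiLC dCD (0.244 to 3.83). The Vmn2r bias itself was 0.355, 0.275 and -1.20 and then 0.400, 0.482 and 1.67 points. With one value per cluster the Vmn2r bias as measured was 5.68, 5.23 and 2.06 in naive cells and 2.76, 4.22 and 5.52 in EpiLCs. With 50 kb on each side the Vmn2r bias was 1.70 to 4.59 points over the 6 libraries, and with 10 kb, where only 11 TSSs had enough reads, it was below 0 in 4 of them.

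Single receptor TSSs carried wide intervals. Vmn2r72 was highest in EpiLC control, at 37.7 points (20.2 to 52.0), and stood at 49.2, 45.4 and 26.7 in naive control, dKO and dCD and at 19.8 and 30.2 in EpiLC dKO and dCD. Olfr347 was lowest, at -44.1 (-55.1 to -30.8), with -38.4, -27.0 and -43.1 in naive cells and -39.3 and -25.3 in the EpiLC mutants. Both kept their sign in all 6 libraries, and both were chosen as the extremes of EpiLC control, so their values in that library are a description of the choice. Among receptors with a known ligand or role, Olfr78, a class I receptor that responds to short-chain fatty acids, had 18.04, -5 and 0.417 in naive cells and 1.42, 12.52 and 14.02 in EpiLCs, with intervals without 0 in the 2 EpiLC mutants only. Olfr16 (MOR23, a lyral receptor) had -5.66, 0.357 and -2.77 in naive cells and -23.5 (-37.8 to -7.26), -5.09 and -3.79 in EpiLCs. Olfr160 (M72) was below 0 in all 6 libraries, from -19.6 to -3.65, with every interval reaching past 0. Olfr73 (a eugenol receptor) ranged from -4.36 to 21.4, Olfr2 (I7, an octanal receptor) from -13.7 to 11.7, Olfr1507 (MOR28) from -29.3 to 15.7 and Vmn2r26 from -22.1 to 38.04. Olfr17 (P2) had only 9 reads on its right side in naive control and was not used.

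Genes that work with the receptors but lie outside the clusters had TSS biases above 0 on average. The 18 genes were transcription factors and chromatin proteins of receptor choice (Lhx2, Ldb1, Ebf1, Emx2, Kdm1a, Lbr), signalling proteins (Gnal, Gnai2, Gnao1, Adcy3, Ric8b, Cnga4, Cngb1, Ano2, Trpc2), the receptor chaperones Rtp1 and Rtp2, and Omp, a marker of mature olfactory neurons. Their mean bias was 5.46, 12.9 and 11.2 points in naive control, dKO and dCD and 5.99, 6.88 and 6.74 in EpiLCs, against 6.41 and 4.32 over all TSSs in naive and EpiLC control. After removal of the T-minus-A part it was 2.25 (-2.09 to 6.60) in naive control, 7.99 and 6.14 in naive dKO and dCD, and 2.96 (0.218 to 5.71), 3.52 and 3.31 in EpiLCs. In naive control 3 (16.7%) were called above 0, against 20.1% of all TSSs, and 0 below, and in EpiLC control 5 (27.8%) were called above, against 21.1%, and 1 below. In EpiLC control Lbr, the lamin B receptor, stood at 23.2 (12.7 to 33.1), Lhx2 at 19.7, Adcy3, the adenylate cyclase of odor signalling, at 17.5, Ldb1 at 13.6 and Ric8b at 11.7. The single gene below was Gnal, the olfactory G protein, at -21.7 (-32.3 to -10.6). Omp at -5.29, Rtp1 at -0.407 and Rtp2 at -5.56 had intervals that included 0.

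Non-receptor genes inside the clusters had a small positive bias as measured. The 90 of them with enough reads averaged 3.28, 3.90 and 6.05 points in naive cells and 2.49, 1.94 and 2.66 in EpiLCs, above the receptor mean of each library. After removal of the T-minus-A part they averaged 0.815, 1.22 and 2.92 and then 0.332, -0.499 and 0.197, and naive dCD alone (0.228 to 5.62) had an interval without 0. Patl1, with 102 CpG in its TSS bin, had -16.1, 10.7 and -8.77 points in naive control, dKO and dCD and 9.84, 2.79 and 8.02 in EpiLCs, with every interval including 0.

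Over all 1238 receptor TSSs, no difference in mean bias between libraries exceeded counting error. The mean differed from control by -0.389 points in naive dKO (-1.20 to 0.420), -0.489 in naive dCD (-1.33 to 0.347), 0.169 in EpiLC dKO (-0.301 to 0.639) and 0.135 in EpiLC dCD (-0.327 to 0.596). EpiLC minus naive control was -0.532 (-1.19 to 0.124). Within the families, only the Vmn1r difference between EpiLC and naive control, -2.27 points (-4.48 to -0.049), had an interval without 0, of 21 family differences. Forks moved along receptor genes, in the direction of transcription, about as often as against them. The mean share of forks along the gene was 50.9, 51.5 and 52.1% in naive cells and 51.0, 50.8 and 51.2% in EpiLCs, against 51.4 to 52.1% over all genes. For the 66 Vmn2r genes it was 55.1, 55.4 and 54.5% in naive cells and 53.6, 52.6 and 54.2% in EpiLCs. These shares carry no interval, and the T-minus-A part was not removed from them.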

How the data were processed

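Okazaki fragments of 6 conditions were sequenced as paired ends. Per the study's methods, the authors used bowtie2 and the mm10 build and summed each strand's reads in 1 kb bins; the submitters' processing notes also name FastQC, Trim Galore, Picard and hg19, without versions. The deposited tables, whose values are signal in reads per bp, held the 2 replicates of a condition summed, with library sizes not equalised. Every value was a whole multiple of 0.001 and became whole reads on multiplication by 1000. Positions were taken as bin ends. Bins above 10-fold of the median (21 reads over the 6 libraries) were dropped; these were 81, with 0 in clusters.

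Crick shares were given Wilson intervals, their differences Newcombe intervals, and ratios of reads exact (Clopper-Pearson) ones, at 95%. The T-minus-A part was removed with the slope of Crick share on T minus A content in each library. Named were the largest clusters of each family, receptors with a known ligand or role, the highest and lowest TSS bias in EpiLC control, 18 partner genes, the largest differences per comparison and the clusters of extreme density; Patl1, Olfr651 to Olfr692, Vmn1r100 to Vmn1r132, Vmn2r19 to Vmn2r27, Olfr1417 to Olfr1441, the clusters of mixed sign and the single windows of Crick share were chosen after their values were seen. The members and lists were chosen with earlier results of these data known. Comparisons by part of a cluster, steps and family, in 10 kb windows and without repeat-rich clusters were added after seeing the data. The computations were tested on simulated data. Python 3.11.15, NumPy 2.4.6, pandas 2.3.3, SciPy 1.17.1 and matplotlib 3.10.9 were used. Alternatives were tried for flanks, windows, minimum reads, joining distance, cluster size and depth.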

Additional observations from a re-analysis of the deposited data

Results flagged for a closer look

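The cluster-to-flank density of a mutant library relative to its control library differed between states. The dKO-over-control ratio was 1.06 times as high in naive cells as in EpiLCs (95% counting interval 1.04 to 1.08), and the dCD-over-control ratio 0.958 times as high (0.940 to 0.975). Each value compares 4 libraries, not conditions, and covers counting error only, so the difference was not tested across replicates. In dCD strain and genotype cannot be told apart.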

How the results depend on the processing

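No paired analysis was possible because each table held the 2 replicates of a condition summed, and for the same reason no replicate could be left out. Of 367 recomputed values, 40 kept the bins with far more reads than the median and all equalled the reported value; none of these bins lies in a cluster, so they test nothing there. Of the other 327, 153 moved by less than their counting error or, for a count, by less than 1.5 times, 164 moved by more and 10 turned from a value whose interval excluded 0 to the other sign. Counting also values whose interval included 0, 22 had another sign. Reading the position as the start of a bin moved no density ratio. The cause of a change was not tested. Sets of 6 values below are in the order naive control, dKO and dCD and EpiLC control, dKO and dCD.

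The density of clusters stayed below that of their flanks under every alternative. The ratios were 0.695, 0.721, 0.690, 0.718, 0.704 and 0.743 with 250 kb flanks, 0.659, 0.684, 0.653, 0.682, 0.671 and 0.706 with 1000 kb flanks and 0.697, 0.722, 0.692, 0.717, 0.704 and 0.744 without bins that held no read. They were 0.744, 0.772, 0.739, 0.756, 0.750 and 0.785 with genes joined under 100 kb, 0.657, 0.673, 0.644, 0.672, 0.661 and 0.688 under 500 kb and 0.682, 0.711, 0.680, 0.701, 0.691 and 0.732 over clusters of at least 10 genes. The median over clusters was 0.713, 0.761, 0.719, 0.741, 0.742 and 0.760, and without the repeat-rich clusters the ratio was 0.689, 0.714, 0.685, 0.709, 0.695 and 0.736 (added after seeing the data).

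The left-minus-right difference, added after seeing the data, stayed above 0 throughout. In points it was 13.3, 16.2, 21.01, 13.4, 14.9 and 17.9 with the part that follows T minus A removed, 14.3, 15.8, 19.96, 12.4, 13.8 and 16.5 with clusters cut into 2 parts in place of 3, 20.7, 22.7, 29.5, 17.5, 19.7 and 22.7 over clusters of at least 10 genes, and 15.96, 17.9, 23.1, 13.6, 15.5 and 17.3 or 16.2, 19.2, 25.1, 14.45, 16.3 and 19.6 with genes joined under 100 or 500 kb.

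The spread of Crick share was 14.7, 15.2, 19.2, 11.4, 12.9 and 14.8 points in 50 kb windows, 12.04, 12.7, 16.6, 9.89, 10.8 and 12.8 in 200 kb windows and 8.89, 9.65, 12.8, 8.40, 8.89 and 10.7 with the T-minus-A part removed. It was 13.6, 14.1, 18.2, 10.8, 12.1 and 14.1 with at least 100 reads a window and 11.9, 12.6, 16.2, 9.79, 10.6 and 12.4 where clusters covered the whole window. In 200 kb windows 0.483% of receptor windows differed in EpiLC dKO from control, 1.44% in EpiLC dCD from control, 8.25% in EpiLC from naive control and 3.41% in EpiLC from naive dKO, against 0.537, 1.63, 6.54 and 4.05% of all windows. At this length 8.29% differed in naive dKO from control and 17.1% in naive dCD from control, against 4.66 and 14.3% of all windows. In 50 kb windows 6.98% differed in EpiLC dKO and 11.97% in EpiLC dCD, against 5.79 and 9.05% of all windows, and with all libraries thinned to the smallest 8.52 and 11.5%, against 6.996 and 10.4%. With the T-minus-A part removed 5.99% differed between the states in dKO and 6.98% in dCD, against 7.54 and 15.5% of all windows.

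Read share differed in few windows under each alternative. In 50 kb windows 3.75% of mutant-control comparisons in naive cells, 0.744% in EpiLCs and 1.82% of comparisons between states passed, against 2.88, 0.783 and 1.46% over all windows. In 200 kb windows 0.485, 0.240 and 0% passed, against 0.464, 0.540 and 0.103%, and at 2-fold 0% of each, against 0.113, 0.156 and 0.00703%. In EpiLCs the share was 0% with at least 100 reads and 0% relative to the flanks of the window, against 0.529 and 0.261% over all windows. In naive cells it was 1.38 and 1.11% in the same settings, against 0.712 and 0.431%. At equal depth the EpiLC share was 1.74% and the naive share 1.49%, with 1.08% between states, against 1.10, 0.978 and 0.701%.

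Strand bias at receptor TSSs held all the changes of sign. Over all receptors it was 1.97, 0.120, 2.05, 1.90, 2.09 and 2.17 points with 10 kb on each side, -0.699, -0.773, -1.21, -0.710, -0.707 and -0.994 with 50 kb and 0.0362, -0.443, -0.602, -0.397, -0.258 and -0.306 with the T-minus-A part removed. It was 0.187 in naive control and 0.0552 in EpiLC dKO with at least 20 reads on each side, and -0.116 in EpiLC control with one value per cluster. For Vmn2r genes it was -13.2, 1.957, -3.46, -1.32, -2.13 and 5.18 with 10 kb on each side, where only 11 TSSs had enough reads, 2.27, 4.59, 2.57, 2.26, 1.70 and 2.02 with 50 kb and 0.355, 0.275, -1.20, 0.400, 0.482 and 1.67 with the T-minus-A part removed. With one value per cluster Vmn2r stood at 2.06 in naive dCD, 2.76, 4.22 and 5.52 in EpiLC control, dKO and dCD, and with genes joined under 100 kb at 5.08 in EpiLC dCD. Depth limits this result, since the median receptor TSS had 24 to 29 reads on its shallower side in naive libraries and 80 to 98 in EpiLC libraries.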
